A study of Mus musculus with 8 samples.

Results

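The genes described are 10 genes of the integrated stress response whose transcription is tied to Atf4: Atf4, Atf5, Ddit3, Asns, Chac1, Trib3, Sesn2, Psat1, Phgdh and Ddit4. They were taken by symbol from the 52636 gene identifiers of the count table. All 10 were matched, and all 10 passed the filter on low counts, which left 18321 genes for testing. RNA was sequenced from mouse epiblast, the embryonic tissue that gives rise to the body, at embryonic day 5.5. Every library carried the genotype Sox2Cre;CRAFR26, in which a Cre recombinase that acts in the epiblast is combined with a tamoxifen-inducible form of the kinase cRAF, so that 4-hydroxytamoxifen (4OHT) induces ERK signalling. Embryos of both conditions carried the same alleles, and no library without the transgene was compared here. The treated embryos received 250 nM 4OHT for 4 h in IVC2 medium, and the controls received ethanol vehicle. Titles of the control libraries read 0 h while their treatment label gives 4 h of vehicle, so 4 h of culture may also separate the conditions. The line was made from targeted embryonic stem cells, and the labels name clone 4 and clone 8. Each of the 4 groups (vehicle and 4OHT in each clone) held 2 libraries, and 10 epiblasts, freed of their extraembryonic layers by dissection, were pooled for each library (7 ng of RNA). The labels do not say how separately the replicate pools were collected, so p-values measure the spread between these libraries, which may be partly technical.

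The integrated stress response starts with kinases that sense amino acid shortage, unfolded protein, viral RNA or heme loss and phosphorylate the translation factor eIF2 alpha. General translation then falls, while the Atf4 transcript, which carries short upstream reading frames, is translated better. ATF4 protein pairs with other basic leucine zipper (bZIP) factors and raises genes for amino acid synthesis and uptake, for tRNA charging and for redox balance, and, when the stress lasts, genes that end the response or promote cell death. RNA counts read the transcripts of these genes. They do not measure eIF2 alpha phosphorylation or ATF4 protein.

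ATF4 and C/EBP factors bind a composite element whose core was searched as TGATGNAA on both strands of RefSeq promoter windows (assembly GRCm38.p6, 250 bases before to 50 after the start). All 10 genes had a window, and Atf5 and Psat1 had a further window each. The core occurred in the windows of 3 genes, Chac1, Asns and Trib3, while 3.969% of all 32851 windows of the same length held it. The former is a count of genes and the latter a share of windows, so the units differ. The cyclic AMP response element TGACGTCA occurred in none of the members' windows and in 1.79% of all windows. In clone 4, Chac1 varied most of the 10 members between replicate pools and Asns varied little, although both hold the core. In clone 8 the vehicle pools differed 1.39-fold for Chac1 and 1.49-fold for Asns. The upstream 250 bases of both genes are shown for the contrast in clone 4. They are written 5′ to 3′ along the gene's strand, with the match in capitals, and lie at chr2:119350992-119351241 on the plus strand (Chac1) and chr6:7693210-7693459 on the minus strand (Asns).
Chac1: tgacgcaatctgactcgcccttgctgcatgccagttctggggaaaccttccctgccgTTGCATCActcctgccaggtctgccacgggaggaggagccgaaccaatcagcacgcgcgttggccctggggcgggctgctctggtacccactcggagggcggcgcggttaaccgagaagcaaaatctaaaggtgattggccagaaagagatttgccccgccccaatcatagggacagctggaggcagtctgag
Asns: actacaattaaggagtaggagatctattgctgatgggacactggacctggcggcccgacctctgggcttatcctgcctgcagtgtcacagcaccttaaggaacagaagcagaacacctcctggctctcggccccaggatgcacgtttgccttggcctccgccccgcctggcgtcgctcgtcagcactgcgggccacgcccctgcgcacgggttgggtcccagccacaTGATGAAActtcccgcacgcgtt
The Chac1 match reads on the reverse strand and begins 193 bases before the start (position -193). The Asns match reads along the gene and begins at position -23. In Trib3 the match, TTACATCA, also reads on the reverse strand and begins at position 15 after the start. A match of letters is a description of the sequence and does not show that a factor binds there.

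The libraries held 33.3 M to 38.0 M counts in vehicle and 56.4 M to 72.5 M in 4OHT (M, mega), so depth differed between the conditions without overlap. The lowest count of any member in any library was 144, for Ddit3. The epiblast markers were present in every library, with a summed level of 4590 to 5776 CPM (counts per 1 M of TMM-scaled library size) over 10 genes. Markers of tissues that the dissection removes were present as well. The 14 visceral endoderm markers summed to 470 to 2926 CPM and the 12 extraembryonic ectoderm markers to 507 to 1280 CPM, with none at 0. Decidua and blood markers summed to 5.15 to 21.3 CPM, with up to 4 of 6 at 0. Mitochondrial genes took 1.35% and 1.19% of counts in the 4OHT libraries of clone 8 and 0.205% to 0.619% in the other 6. Summed Y-linked transcripts stood at 3.64 CPM in 4OHT clone 4 replicate 2 and at 51.6 to 133 CPM in the other libraries.

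No member of the Atf4 group passed an adjusted p under 0.05 after 4OHT, in clone 4, in clone 8 or in both clones together, by edgeR's quasi-likelihood test with Benjamini-Hochberg adjustment over all 18321 genes. Atf4 was estimated 0.48 lower on the log2 scale in each clone, with 95% intervals that included 0. The same genes differed widely between replicate pools of one group, and there all or nearly all of them stood higher in the same pool. The range was greatest for the stress effectors Chac1, Trib3 and Ddit3 and least for Sesn2 and the amino acid enzymes. In bulk RNA, fewer cells of a type and less RNA per cell cannot be told apart.

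Levels were compared between genes as CPM per kilobase of exon over all 8 libraries. Phgdh, the first enzyme of serine synthesis, was the most abundant at 196 ± 35.3 CPM per kilobase (SD, n = 8), followed by Asns, asparagine synthetase, at 174 ± 30.3. Atf4 stood at 121 ± 42.3 and Psat1, the second enzyme of serine synthesis, at 119.9 ± 16.8 CPM per kilobase. Below them came Sesn2, a leucine-binding inhibitor of mTORC1, at 64.9 ± 10.2, Trib3, a pseudokinase that feeds back on ATF4, at 58.6 ± 33.4, and Chac1, which degrades glutathione, at 51.9 ± 27.8. Ddit4, an inhibitor of mTORC1, stood at 13.9 ± 6.25. The transcription factors Atf5 and Ddit3 (the latter encodes CHOP) were the lowest, at 7.37 ± 3.82 and 5.68 ± 4.23 CPM per kilobase. Between neighbours in this order the ranges over the 8 libraries overlapped, except between Psat1 and Sesn2. The highest library exceeded the lowest 8.02-fold for Trib3, 7.45-fold for Chac1 and 6.96-fold for Ddit3. For Atf4, Atf5 and Ddit4 the range was 3.47-fold, 3.40-fold and 3.34-fold. For Phgdh, Asns, Psat1 and Sesn2 it was 1.80-fold, 1.63-fold, 1.57-fold and 1.46-fold.

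**Figure D1:**
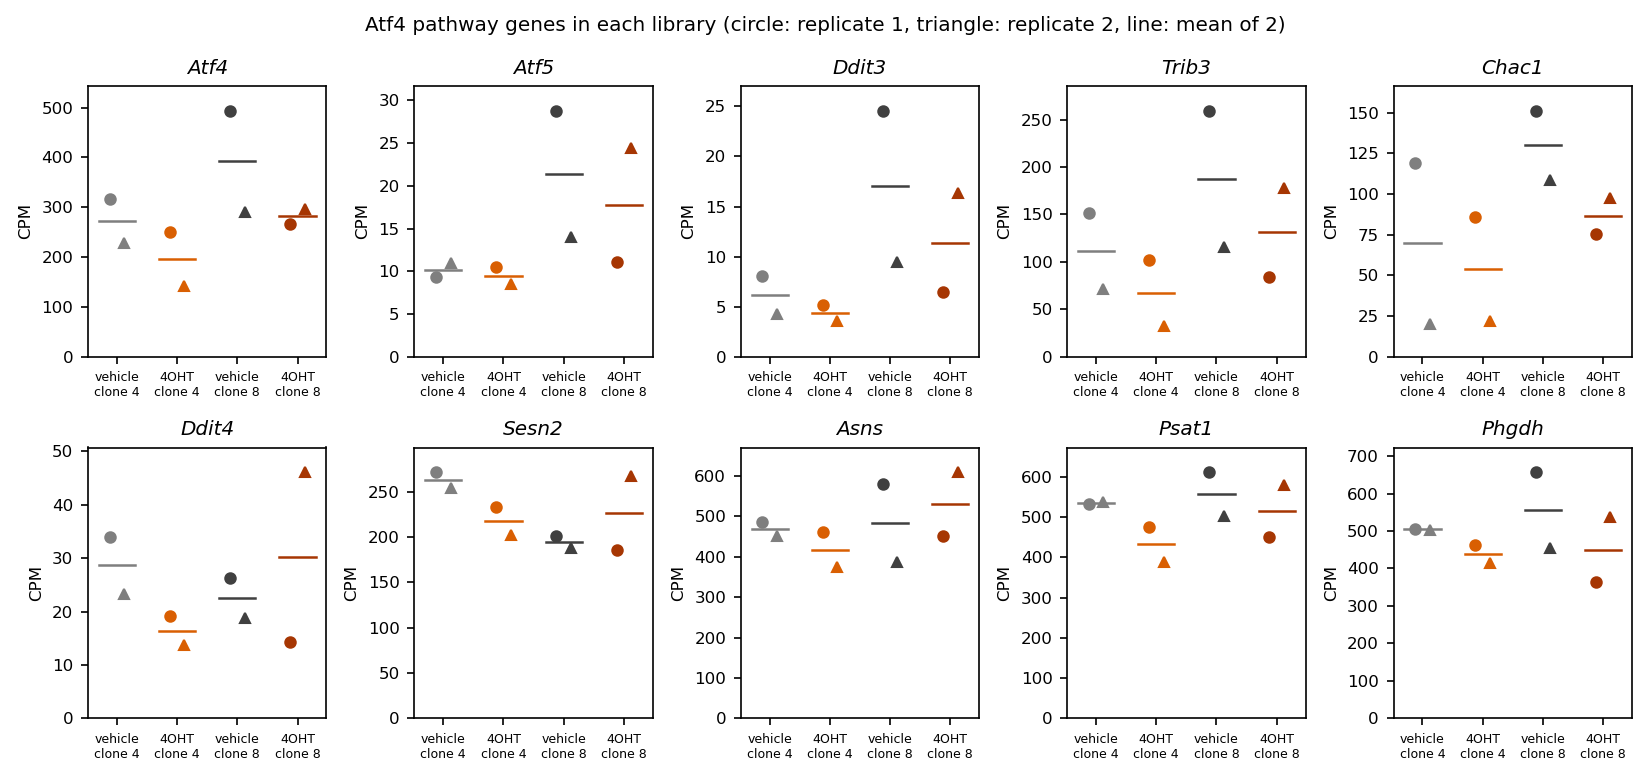
Level of each of the 10 genes in CPM (TMM-scaled, linear axes that start at 0) in each of the 8 libraries, by clone and treatment; points are libraries and horizontal bars are group means (n = 2). Vehicle clone 8 replicate 1 is the highest library for 7 of the 10 genes and 4OHT clone 4 replicate 2 the lowest for 7.

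The transcription factors come first. Atf4 (ENSMUSG00000042406; GRCm38 chr15:80255184-80257541, plus strand) is the main effector of the pathway. In clone 4 its level was 317 and 229 CPM in vehicle, against 251 and 142 CPM in 4OHT. In clone 8 it stood at 494 and 290 CPM in vehicle and at 267 and 296 CPM in 4OHT. The groups overlapped in both clones, since 1 4OHT library lay above the lower vehicle library each time. The log2 fold change was -0.48 in clone 4 (SE 0.30, 95% interval -1.15 to 0.20, adjusted p 0.697) and -0.48 in clone 8 (SE 0.30, -1.15 to 0.20, adjusted p 0.300).

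Atf5 (ENSMUSG00000038539; chr7:44812256-44816658, minus strand) encodes a related bZIP factor that is also under translational control. It stood at 9.33 and 10.9 CPM in vehicle and 10.5 and 8.47 CPM in 4OHT in clone 4. The clone 8 values were 28.8 and 14.0 CPM in vehicle and 11.1 and 24.4 CPM in 4OHT. The ranges overlapped in both clones. The log2 fold changes were -0.09 (SE 0.41, adjusted p 0.973) in clone 4 and -0.27 (SE 0.40, adjusted p 0.679) in clone 8. Exons of Atf5 share 82 bases with Nup62 on the opposite strand, and whether counting used strand is not given in the sources used here.

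Ddit3 (ENSMUSG00000025408; chr10:127290774-127296288, plus strand) encodes CHOP, a factor linked to cell death under lasting stress. Its levels were 8.02 and 4.28 CPM in vehicle and 5.15 and 3.53 CPM in 4OHT in clone 4. In clone 8 they were 24.6 and 9.46 CPM in vehicle and 6.45 and 16.3 CPM in 4OHT. The 4OHT and vehicle libraries overlapped in each clone. The log2 fold changes were -0.51 (SE 0.55, -1.74 to 0.72) in clone 4 and -0.58 (SE 0.53, -1.78 to 0.62) in clone 8. Its exons share 68 bases with Mars, a tRNA synthetase gene on the opposite strand. A second annotated identifier that also bears the name Ddit3 shares 105 exonic bases with it on the same strand. That identifier is absent from the deposited counts, and its effect on the Ddit3 level was not tested.

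The stress effectors followed. Chac1 (ENSMUSG00000027313; chr2:119351229-119354381, plus strand) stood at 119 and 20.3 CPM in vehicle and at 86.0 and 22.2 CPM in 4OHT in clone 4, so replicate pools of either condition lay farther apart than the conditions. In clone 8 it stood at 151 and 108 CPM in vehicle and at 75.5 and 97.4 CPM in 4OHT, with both 4OHT libraries below both vehicle libraries. The log2 fold changes were -0.37 (SE 0.73, -2.01 to 1.28) in clone 4 and -0.59 (SE 0.73, -2.23 to 1.06) in clone 8. Leaving out vehicle clone 4 replicate 1 turned the clone 4 value to 1.42, and leaving out 4OHT clone 4 replicate 2 turned it to 0.30.

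Trib3 (ENSMUSG00000032715; chr2:152337422-152344032, minus strand) stood at 151 and 71.7 CPM in vehicle and 102 and 32.3 CPM in 4OHT in clone 4. In clone 8 it stood at 259 and 116 CPM in vehicle and 84.5 and 178 CPM in 4OHT. Vehicle and 4OHT overlapped in both. Its log2 fold changes were -0.73 (SE 0.59, adjusted p 0.772) in clone 4 and -0.51 (SE 0.59, adjusted p 0.584) in clone 8, and the latter was 0.16 without vehicle clone 8 replicate 1.

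The mTORC1 inhibitors did not pass in either clone, although their 4OHT and vehicle libraries did not overlap in clone 4, where 47.5% of all tested genes did not overlap. Sesn2 (ENSMUSG00000028893; chr4:132492032-132510501, minus strand) stood at 272 and 254 CPM in vehicle and 234 and 202 CPM in 4OHT there, and its response was -0.27 on the log2 scale (SE 0.17, adjusted p 0.681). In clone 8 its levels of 201 and 188 CPM in vehicle lay within the range of the 4OHT libraries, 186 and 267 CPM, with a log2 response of 0.22 (SE 0.17, adjusted p 0.385). Ddit4 (ENSMUSG00000020108; chr10:59949669-59951834, minus strand) stood at 34.0 and 23.3 CPM in vehicle and 19.1 and 13.8 CPM in 4OHT in clone 4, a log2 fold change of -0.80 (SE 0.46, -1.84 to 0.24, adjusted p 0.644).

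In clone 8, Ddit4 stood at 26.4 and 18.9 CPM in vehicle and at 14.3 and 46.1 CPM in 4OHT. The 4OHT libraries lay on either side of both vehicle libraries. The log2 fold change was 0.42 (SE 0.46, adjusted p 0.569). It turned on a single library: without 4OHT clone 8 replicate 1 it was 1.03, and without 4OHT clone 8 replicate 2 it was -0.67.

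The biosynthetic enzymes varied less between libraries than the transcription factors and stress effectors. Asns (ENSMUSG00000029752; chr6:7675169-7693254, minus strand) stood at 487 and 451 CPM in vehicle and 461 and 374 CPM in 4OHT in clone 4, and at 579 and 388 CPM and 452 and 610 CPM in clone 8. The conditions overlapped in both clones, with log2 fold changes of -0.17 (SE 0.20) and 0.13 (SE 0.20). Psat1 (ENSMUSG00000024640; chr19:15904678-15947337, minus strand) stood at 533 and 539 CPM in vehicle and 476 and 389 CPM in 4OHT in clone 4, without overlap. Its clone 8 levels were 612 and 504 CPM in vehicle and 450.2 and 579 CPM in 4OHT, which overlapped. The log2 fold changes were -0.31 (SE 0.15, -0.66 to 0.04, adjusted p 0.574) and -0.12 (SE 0.15, -0.46 to 0.23, adjusted p 0.644).

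Phgdh (ENSMUSG00000053398; chr3:98313170-98339990, minus strand) stood at 507 and 503 CPM in vehicle and 462 and 414 CPM in 4OHT in clone 4, again without overlap. In clone 8 it stood at 657 and 454 CPM in vehicle and 364 and 536 CPM in 4OHT, with overlap. Its log2 fold changes were -0.20 (SE 0.20, adjusted p 0.824) and -0.30 (SE 0.20, adjusted p 0.331). A processed copy, Phgdh-ps1, held 90 counts in total over the 8 libraries. For the enzymes and Sesn2 the 95% intervals within a clone reached no further than 0.76 from 0 on the log2 scale, while those of Chac1 reached -2.23.

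Over the 10 genes, the count called after 4OHT was 0 of 10 in clone 4, where 0.0382% of all tested genes were called, and 0 of 10 in clone 8, where 16.6% were called. At an unadjusted p under 0.05 it was 0 of 10 in each clone, against 9.9% and 33.2% of all genes. All 10 estimates lay below 0 in clone 4, with a median log2 fold change of -0.34, and 7 of 10 lay below 0 in clone 8, with a median of -0.29. The 3 above 0 in clone 8 were Asns, Sesn2 and Ddit4. Over all tested genes the medians were -0.0047 in clone 4 and 0.069 in clone 8. The groups did not overlap for 4 of 10 members in clone 4 (Sesn2, Psat1, Phgdh and Ddit4, all lower in 4OHT), where 47.5% of all genes did not overlap. In clone 8 they did not overlap for 1 of 10, Chac1, against 59.9% of all genes. Without vehicle clone 8 replicate 1 the clone 8 median of the members was 0.21.

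**Figure D2:**
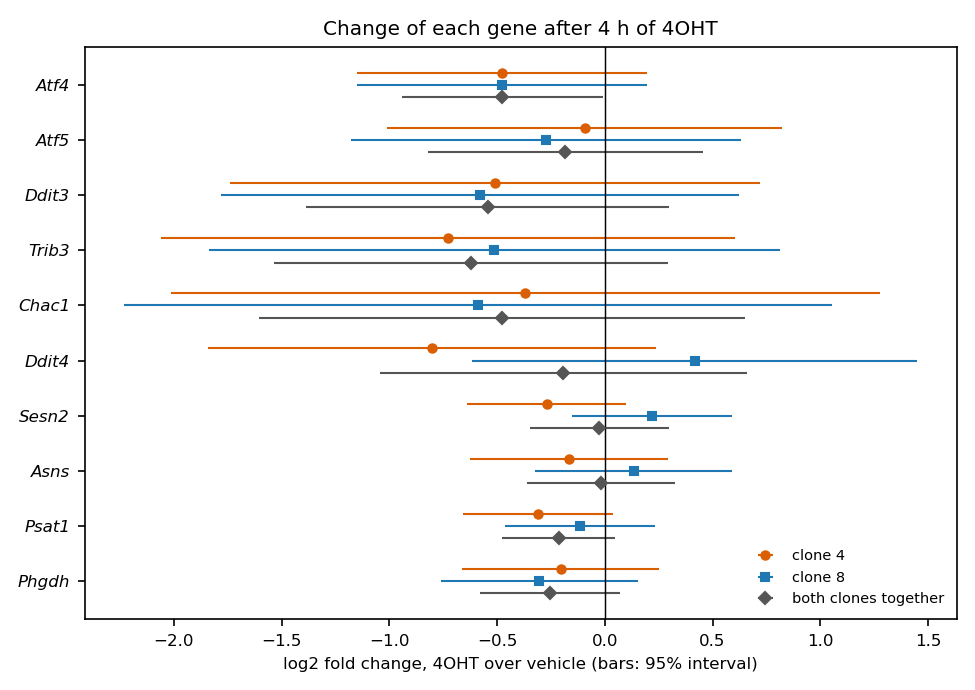
Log2 fold change of 4OHT against vehicle for each of the 10 genes in clone 4, in clone 8 and in both clones together; points are estimates and bars are 95% intervals from edgeR's quasi-likelihood fits. Most intervals cross 0; the pooled interval of Atf4, -0.94 to -0.01, ends just below it.

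With both clones in 1 fit and clone as a term, 0 of 10 members were called, and 0.00546% of all tested genes were. Atf4 alone had an unadjusted p under 0.05, as did 16.9% of all genes. Its log2 fold change was -0.48 (SE 0.21, 95% interval -0.94 to -0.01), with a p of 0.0467 and an adjusted p of 0.291. Larger estimates with wider errors were those of Trib3 at -0.62 (SE 0.41, adjusted p 0.464) and Ddit3 at -0.54 (SE 0.38, adjusted p 0.482). All 10 estimates lay below 0, with a median of -0.23. Those of Asns at -0.02 and Sesn2 at -0.03 turned to 0.06 and 0.04 when libraries were scaled by their totals. With no filter on low counts, 3 members passed in each clone and in both together, all lower. They were Atf4 and Trib3 each time, with Ddit4 in clone 4 and Chac1 in the others. That setting called 728 genes in clone 4, 4263 in clone 8 and 1337 in both together. With the filter the counts were 7, 3041 and 1. No member passed by DESeq2 in these 3 comparisons.

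Whether the clones differed in response was tested as clone 8 minus clone 4. No member passed (0 of 10, against 2.83% of all genes), and 0 of 10 had an unadjusted p under 0.05, against 22.7%. The difference was -0.0008 for Atf4 (SE 0.42). The 2 mTORC1 inhibitors had the lowest p-values: Sesn2 differed by 0.49 (SE 0.23, -0.03 to 1.01, adjusted p 0.246) and Ddit4 by 1.22 (SE 0.65, -0.25 to 2.68, adjusted p 0.299). Without 4OHT clone 8 replicate 1 the difference was 0.73 for Sesn2 and 1.83 for Ddit4. These were the largest values under the alternative settings, where the smallest were 0.20 for Sesn2 and 0.13 for Ddit4.

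The vehicle libraries of clone 8 were also compared with those of clone 4, a comparison that shares its samples with the responses above. Again 0 of 10 members passed, against 8.37% of all genes. The count at an unadjusted p under 0.05 was 3 of 10, against 25.7% of all genes, and the same 3 genes did not overlap between the clones, against 58.9%. Ddit3 was at 17.0 ± 10.7 CPM in clone 8 and 6.15 ± 2.64 CPM in clone 4 (SD, n = 2 each), a log2 difference of 1.47 (SE 0.55, adjusted p 0.130). Atf5 was at 21.4 ± 10.4 and 10.1 ± 1.12 CPM, a difference of 1.08 (SE 0.41, adjusted p 0.134). Sesn2 was at 195 ± 9.69 and 263 ± 12.8 CPM, a difference of -0.43 (SE 0.16, adjusted p 0.136). DESeq2 called Ddit3 (adjusted p 0.0131) and Atf5 (0.0210) among 3066 genes, where edgeR called 1534 genes. These differences rest on the vehicle libraries. Leaving out either 4OHT library of clone 8 could therefore hardly move them, at 1.08 for Atf5 and -0.43 for Sesn2. Over all alternative settings they ran from 0.62 to 2.01 for Ddit3, 0.48 to 1.52 for Atf5 and -0.48 to -0.37 for Sesn2. For Atf4 the difference was 0.52 (SE 0.30, adjusted p 0.321).

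The clearest pattern in the 10 genes lay between the replicate pools. In vehicle clone 8, all 10 genes were higher in replicate 1 than in replicate 2, with a median log2 ratio of 0.55. All 10 were also higher in replicate 1 of 4OHT clone 4, with a median of 0.39. In 4OHT clone 8 the order was the opposite: 0 of 10 were higher in replicate 1, and the median was -0.54. In vehicle clone 4, 8 of 10 were higher in replicate 1, with a median of 0.29. Of all tested genes, 48.26%, 50.28%, 52.34% and 50.01% were higher in replicate 1 in these groups, in the same order, with medians between -0.0149 and 0.0269. The median ratio of the members between replicates was thus as large as their median response to 4OHT or larger, except in vehicle clone 4. These counts describe the libraries and carry no test.

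Chac1 had the widest ratio within a group, at 5.86-fold between the vehicle pools of clone 4 and 3.86-fold between its 4OHT pools. Trib3 differed 2.11-fold and 3.17-fold between the same pairs, and 2.24-fold and 2.11-fold between the vehicle and 4OHT pools of clone 8. Ddit3 differed 2.59-fold and Atf5 2.05-fold between the vehicle pools of clone 8. Ddit4 differed 3.22-fold between the 4OHT pools of clone 8. Across the 4 groups the ratios of Atf4 were 1.11-fold to 1.76-fold, those of Asns 1.08-fold to 1.49-fold and those of Psat1 1.01-fold to 1.29-fold. Vehicle clone 8 replicate 1 was the highest of all libraries for 7 members, and 4OHT clone 8 replicate 2 was highest for Asns and Ddit4. 4OHT clone 4 replicate 2 was the lowest for 7 members. The latter library also held the fewest Y-linked transcripts and the highest visceral endoderm sum, 2926 CPM, and their part in the low values was not tested.

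**Figure D3:**
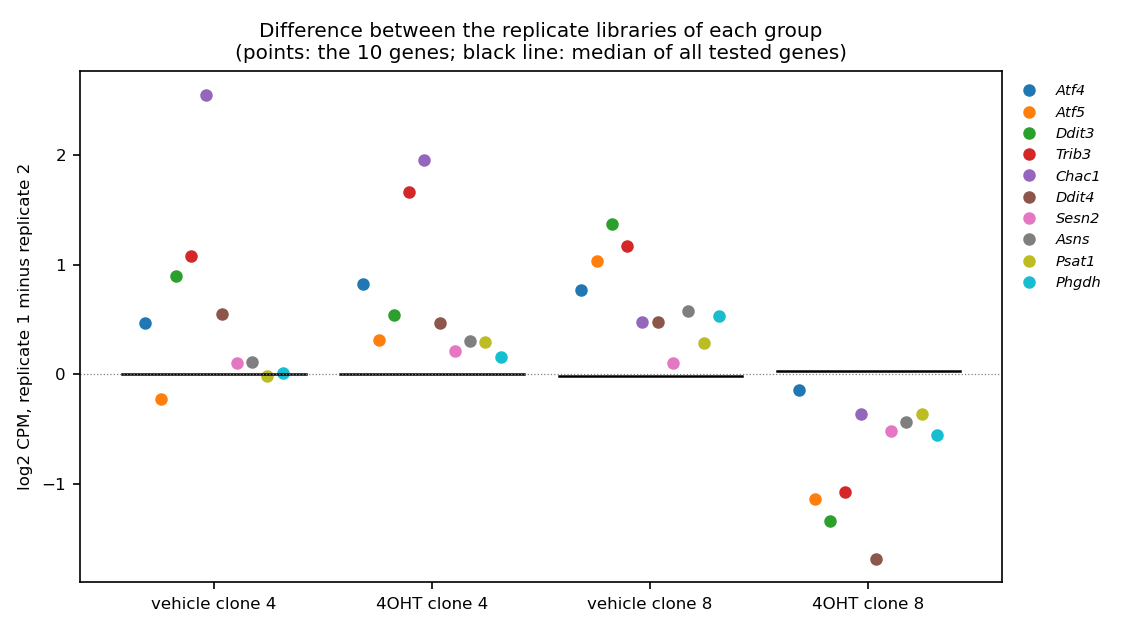
Log2 ratio of replicate 1 to replicate 2 of each of the 10 genes within each of the 4 groups; points are genes, the black line is the median of all tested genes, and values above 0 mean a higher level in replicate 1. All 10 genes lie above 0 in vehicle clone 8 and 4OHT clone 4, 8 of 10 in vehicle clone 4 and 0 of 10 in 4OHT clone 8.

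Other genes of the pathway were read from 7 lists. Of 13 aminoacyl-tRNA synthetases and transport genes, 11, 9 and 13 were higher in replicate 1 in vehicle clone 4, vehicle clone 8 and 4OHT clone 4, and 0 in 4OHT clone 8. Of 12 further enzymes of amino acid and one-carbon metabolism, 8, 11, 10 and 0 were. The same count was 4, 7, 7 and 2 of 9 for amino acid transporters, 8, 7, 7 and 5 of 10 for bZIP partners and stress regulators, and 5, 5, 6 and 2 of 6 for secreted targets. It was 4, 5, 4 and 5 of 8 for the list of eIF2 alpha kinase, eIF2-related and phosphatase genes. For 19 chaperone genes of the ATF6 and XBP1 arms of the unfolded protein response it was 14, 8, 4 and 8. Marker lists of other tissues gave 13, 8, 5 and 0 of 14 for visceral endoderm and 12, 3, 7 and 9 of 12 for extraembryonic ectoderm. Their part in the pattern was not tested.

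After 4OHT, 0 genes of the 7 lists passed in clone 4, where 0.0382% of all tested genes were called. The counts were 0 of 8 kinase and eIF2 genes, 0 of 10 bZIP partners, 0 of 12 enzymes and 0 of 9 transporters. They were 0 of 13 synthetases, 0 of 6 secreted targets and 0 of 19 chaperone genes. Of the chaperone genes, 18 estimates lay above 0 in clone 4 and 1 below. At an unadjusted p under 0.05, 8 of the 19 were higher and 0 lower, where 9.9% of all genes passed in either direction. In clone 8, 2 of 9 transporters, 2 of 13 synthetases and 1 of 6 secreted targets rose, and 1 of 19 chaperone genes fell, where 16.6% of all tested genes were called. None of the kinase and eIF2 genes, bZIP partners or enzymes passed there. The list medians in clone 8 were 0.26 for transporters, 0.24 for synthetases, 0.20 for the kinase and eIF2 genes, 0.04 for enzymes and for chaperone genes, 0.02 for bZIP partners and -0.19 for secreted targets.

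Among transporters, Slc38a2, a carrier of small neutral amino acids, stood at 274 and 296 CPM in vehicle and 370 and 565 CPM in 4OHT in clone 8. It rose by 0.72 on the log2 scale (SE 0.18, adjusted p 0.0299), which was 0.37 without 4OHT clone 8 replicate 2. Slc1a5, a glutamine carrier, stood at 106 and 149 CPM in vehicle and 211 and 297 CPM in 4OHT and rose by 0.99 (SE 0.26, adjusted p 0.0338). Among genes of tRNA use, Iars, which charges tRNA with isoleucine, went from 280 and 331 CPM to 470 and 625 CPM, a log2 rise of 0.84 (SE 0.15, adjusted p 0.0110). Xpot, which exports tRNA from the nucleus, went from 171 and 179.7 CPM to 268 and 335 CPM, a rise of 0.78 (SE 0.14, adjusted p 0.0123). For these 4 genes, which are named because they were called, both 4OHT libraries of clone 8 lay above both vehicle libraries, and 59.9% of all tested genes did not overlap there.

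Ndrg1, a gene induced by hypoxia and other stress, stood at 10.9 and 17.6 CPM in vehicle and 39.3 and 45.6 CPM in 4OHT in clone 8. It rose by 1.57 on the log2 scale (SE 0.23, adjusted p 0.00850). Manf, a secreted protein of the endoplasmic reticulum, fell from 206 and 189 CPM to 134 and 117 CPM, with a log2 response of -0.65 (SE 0.13, adjusted p 0.0160). In a fit of the 4 libraries of clone 8 alone, these 6 calls were lost, with adjusted p-values of 0.0579 to 0.104. That fit called 0 genes in all, so the loss is not particular to these 6. None of the 6 calls held in every fit that left out 1 library. The number of all genes called changed widely between those fits as well, so a lost call is not by itself particular to a gene. Over those fits the response ran from 0.37 to 0.99 for Slc38a2, 0.72 to 1.225 for Slc1a5 and 0.62 to 1.03 for Iars. It ran from 0.60 to 0.93 for Xpot, 1.24 to 1.93 for Ndrg1 and -0.75 to -0.565 for Manf.

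The difference of the responses between clones passed for 5 of these 6 genes: Ndrg1 at 2.28 (adjusted p 0.0230), Slc38a2 at 1.24 (0.0451), Iars at 1.01 (0.0443), Xpot at 0.91 (0.0494) and Manf at -1.06 (0.0331). Each of these calls was lost in at least 5 of 8 fits that left out 1 library, and those of Slc38a2 and Xpot were lost with the replicate number as a block (adjusted p 0.0506 and 0.0628). In vehicle, clone 8 lay lower than clone 4 for Ndrg1, with a log2 difference of -1.73 (adjusted p 0.0129), Iars at -0.75 (0.0247), Xpot at -0.68 (0.0289) and Wars, which charges tRNA with tryptophan, at -0.43 (0.0466). Slc7a5, which carries large neutral amino acids, lay higher there, at 1.26 (0.0231). Of the 8 fits that left out 1 library, the vehicle calls held in 5 for Ndrg1, Iars and Slc7a5, in 4 for Xpot and in 2 for Wars, whose call was also lost with the replicate block (adjusted p 0.0541). For Iars the 4OHT libraries of clone 8, 470 and 625 CPM, stood beside 501 and 529 CPM in vehicle clone 4, and for Ndrg1 39.3 and 45.6 CPM stood beside 44.5 and 49.8 CPM.

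Markers of neighbouring tissues moved between the same groups. In clone 8, where 16.6% of all tested genes were called, 9 of 12 extraembryonic ectoderm markers rose after 4OHT. Their sums were 507 and 557 CPM in vehicle and 1232 and 1075 CPM in 4OHT. There 5 of 14 visceral endoderm markers fell, with sums of 1802 and 1831 CPM in vehicle and 470 and 1269 CPM in 4OHT. Between the vehicle clones, 8 of 12 extraembryonic ectoderm markers were lower in clone 8 and 6 of 14 visceral endoderm markers were higher. Of all tested genes, 8.37% were called there. In clone 4, where 0.0382% of all tested genes were called, no marker of either list passed. Estimates of all 14 visceral endoderm markers lay above 0 there, with a median log2 fold change of 1.94. Of these, 13 had an unadjusted p under 0.05, against 9.9% of all genes. Their sums were 870 and 545 CPM in vehicle and 2575 and 2926 CPM in 4OHT. Of the extraembryonic ectoderm markers, 8 of 12 lay above 0, with a median of 0.22 and a lowest value of -1.06. At an unadjusted p under 0.05, 1 of these 12 was higher and 3 were lower, against 9.9% of all genes in either direction. Of 10 epiblast markers, 4 fell after 4OHT in clone 8 (list median -0.53) and 0 passed in clone 4 (median -0.24). In each clone 9 of 10 estimates lay below 0. In clone 4, 4 of the 10 epiblast markers were lower at an unadjusted p under 0.05 and 0 were higher. Between the vehicle clones, 2 of 10 were higher in clone 8. The part of these markers in the values of the Atf4 group was not tested.

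**Figure D4:**
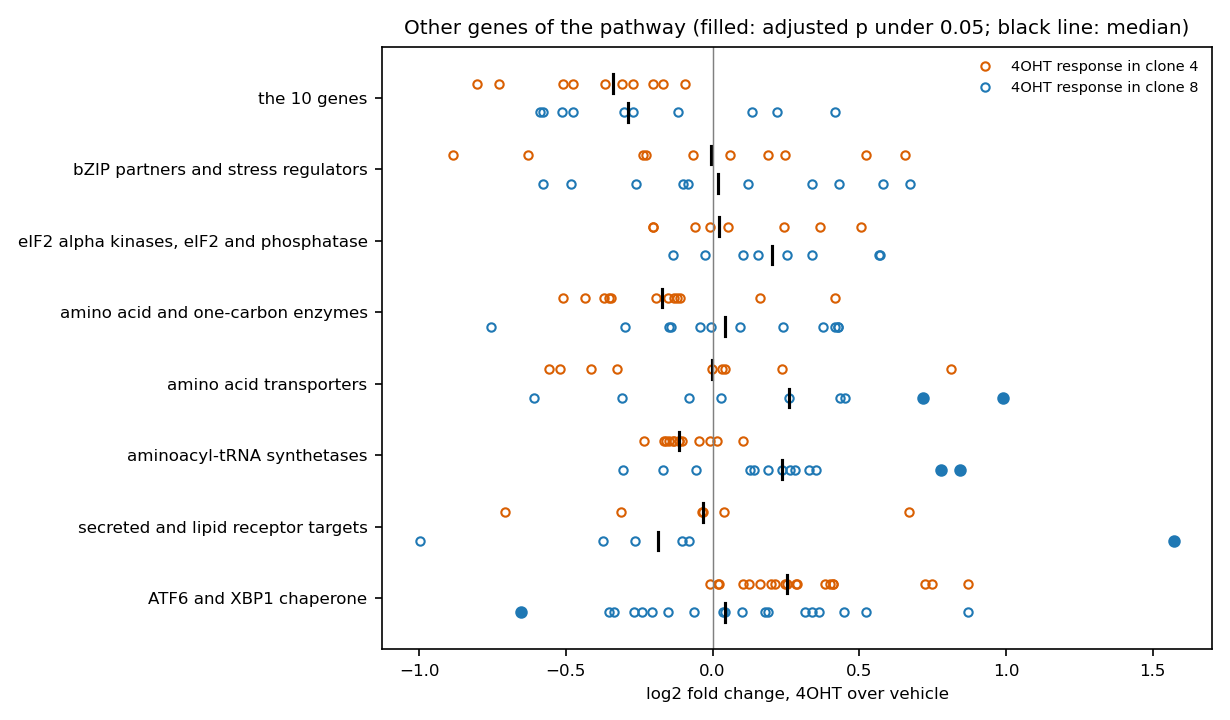
Log2 fold change of 4OHT against vehicle for every gene of the 10 members and of the 7 other pathway lists, in clone 4 and in clone 8; points are genes (filled where the adjusted p was under 0.05), and black lines are list medians. In clone 8 the transporters (median 0.26) and synthetases (0.24) lie above the members (-0.29), and in clone 4 the medians of the lists other than chaperone genes (0.25) lie between -0.34 and 0.02.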

How the data were processed

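RNA-seq counts of 8 epiblast libraries were used. The authors deposited raw read counts per Ensembl gene, without normalization. Per the submitters' processing notes, tools were bcl2fastq 2.19.1 and STAR 2.5.3a, and the build was mm10; the counting program, annotation release and use of strand are not given in the sources used here. Of 52636 identifiers, 52403 matched a symbol, and the 233 others held at most 0.0325% of a library. Positions come from GENCODE M21.

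edgeR 4.0.16 in R 4.3.3 (filterByExpr with a minimum count of 10, TMM scaling, glmQLFit, glmQLFTest) fitted the 4 groups together, and a fit with additive clone and treatment terms gave both clones together. P-values were adjusted by Benjamini-Hochberg over 18321 genes, with a threshold of 0.05. The code was tested on simulated data. Alternatives were RLE size factors, library totals, other filters, DESeq2 1.42.0, a replicate block, thinned counts, a fit of 1 clone alone, an adjusted p under 0.01 the mean of the within-clone responses and each library left out; genes without an adjusted p from DESeq2 were left without one. All 10 members are named; other pathway genes were named if they were called, or were among the 2 of a list with the lowest p in a clone. Members and lists were chosen with earlier results of these data known, and the counts between replicates were described after their values were seen.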

Additional observations from a re-analysis of the deposited data

Results flagged for a closer look

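Among the 4OHT libraries, Atf5 stood at 24.4 CPM and Ddit4 at 46.1 CPM in clone 8 replicate 2, far from the other 3 libraries. The gap to the nearest library was 0.836 of the whole range in each case. In all, 22 sets of libraries were examined in this way, each from a single condition and both clones. Chance would place 1.1 of them past the limit used if each set came from a single normal population. The mix of clones may break that assumption. The same library was among the top 2 of 8 for 8 of the 10 members.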

How the results depend on the processing

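Genes called numbered 7 in clone 4, 3041 in clone 8, 519 for the difference of the responses, 1 in both clones together and 1534 between the vehicle clones, with 0 members among them. With no expression filter, 3 members were called in each clone, 3 in both together, 1 for the difference and 6 between vehicle clones. Genes called became 728 in clone 4, 4263 in clone 8, 2114 for the difference, 1337 in both together and 2901 between vehicle clones. DESeq2 called 466, 4277, 1806, 1024 and 3066 genes in the same order, with 2 members between the vehicle clones. At least 10 counts in every library gave 78 genes in clone 4 and 0 in both together. Thinned counts gave 19 and 0. A fit of 1 clone alone gave 220 genes in clone 4 and 0 in clone 8, and the mean of the within-clone responses gave 1063 in both together. An adjusted p under 0.01 left 0 genes in clone 4, 272 in clone 8, 0 for the difference, 0 in both together and 28 between vehicle clones. With the replicate block, 0 genes were called in clone 4, and no member was called in any comparison. Deviations of same-numbered libraries had correlations of -0.0298 to 0.0947 between groups. Such values cannot show whether a replicate number marks a shared litter or day, which the labels do not say.

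Leaving out each library in turn, where the lone library of a group is assumed to vary like the other groups, gave 0 to 267 genes in clone 4, 0 to 3179 in clone 8, 0 to 1205 for the difference, 0 to 1 in both together and 0 to 2518 between vehicle clones. Members called were 0 to 1 in clone 8 (Ddit4, without 4OHT clone 8 replicate 1), 0 to 2 for the difference (Sesn2 and Ddit4, without that library) and 0 to 2 between vehicle clones. The median log2 fold change of the members was -0.63 to -0.13 in clone 4 and -0.65 to 0.21 in clone 8. Atf4 stayed below 0 in every fit, at -0.94 to -0.12 in clone 4 and -0.84 to -0.07 in clone 8. Phgdh also stayed below 0 in every fit, at -0.29 to -0.13 in clone 4 and -0.62 to -0.04 in clone 8. Each of the other members changed sign in some of these comparisons, none with a call on both sides. Without single libraries the clone 4 values ran from -0.89 to 0.0182 for Ddit3, -1.65 to 1.42 for Chac1 and -0.26 to 0.0557 for Atf5. Those of clone 8 ran from -0.96 to 0.32 for Atf5, -1.41 to 0.25 for Ddit3, -1.16 to 0.16 for Trib3, -0.31 to 0.0525 for Psat1, -0.16 to 0.43 for Asns, -0.0701 to 0.46 for Sesn2 and -0.67 to 1.03 for Ddit4. In both together they ran from -0.16 to 0.0685 for Asns, -0.99 to 0.11 for Chac1, -0.19 to 0.0647 for Sesn2, -0.75 to 0.032 for Ddit4 and -0.43 to 0.0718 for Atf5. Library totals gave 0.0079 for Psat1 in clone 8, and 0.0553 for Asns and 0.0442 for Sesn2 in both together, and no filter gave 0.0069 for Asns. Of 878 single-gene values under the alternatives, 734 kept direction and side of the threshold, 23 gained a call, 90 lost one and 31 changed sign; the cause was not tested. RLE size factors and library totals, chosen after the values were seen, moved the counts of members higher in replicate 1 by at most 1, to 9 in vehicle clone 4.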
